A study of Mus musculus with 7 samples.

Results

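The genes described here are the protein-coding members of the mouse Rnf series, named for the RING finger, a zinc-binding fold found in many ubiquitin ligases. They were taken by name, as Rnf followed by a number with at most 1 trailing letter, which gave 79 genes of the 48440 in each library's table. Of these, 61 had enough reads to be tested among 12261 genes in all. The family was chosen by the exon-read comparison of infants with adults, in which Rnf217 was 1 of 2 genes with an adjusted p under 0.05, so every infant-to-adult value of these genes is given as a description and not as a test of the family.

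The libraries came from dendritic cells with CD11b on their surface, which were sorted out of mediastinal lymph nodes in B6 mice at 24 hours after house dust mite allergen and LPS were given through the nose. The 3 adult libraries were from mice 7 weeks old and the 4 infant libraries from mice 2 to 3 weeks old. Both groups had the same sensitization, and no unsensitized library was analysed here. The sort kept CD11c+ cells with high MHC class II that lacked B220, CD64 and CD103. How many animals went into a library is not stated, so the spread between libraries may be partly technical.

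Ubiquitin is a small protein that is attached to other proteins in a chain of steps. An E1 enzyme activates it, an E2 enzyme carries it and an E3 ligase chooses the target. RING ligases hold the E2 next to the target and let ubiquitin pass straight across. A smaller class, the RING-between-RING ligases, first takes the ubiquitin onto itself and then hands it on. In dendritic cells ubiquitin ligases are known for setting how long toll-like receptors, TNF receptor complexes and surface MHC class II stay active. Rnf217 is a RING-between-RING ligase that has been reported in mice to mark the iron exporter ferroportin, encoded by Slc40a1, for breakdown.

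Exon reads per library ran from 18022302 to 22316484, and the 79 genes took 0.435% to 0.469% of them. The first principal component, with 36.5% of the variance, set infant 2 at 65.7 against -22.3 to 8.59 in the other 6 libraries. Infant 2 also held the highest level of the nuclear RNA Malat1, at 13539 CPM (exon reads of a gene per 1e6 exon reads of the library, with library sizes scaled by TMM) against 3058 to 4411 CPM elsewhere. Adult 1 and adult 3 had 0 reads of Xist and 3428 and 4066 of Y-linked genes, and adult 2 had 546 and 3. Each infant library had both, at 117 to 285 reads of Xist and 340 to 1432 of Y-linked genes. Each infant library thus held RNA of both sexes, and so, it appears, of more than 1 animal, whereas each adult library read as 1 sex. The mix of sexes, and perhaps the number of animals in a library, therefore differed between the age groups. Their part in the values and in the spreads was not tested. The table of adult 3 carried a sample name unlike those of the other 6. Markers of the labelled cell type had reads in every library. The migration receptor gene Ccr7, which does not mark the CD11b subset, averaged 5853 ± 471 CPM (SD, n = 3) in the adult and 4954 ± 294 CPM (SD, n = 4) in the infant libraries. Itgam, which encodes CD11b, was low, with 1 entry at 9.83 to 21.2 CPM and the other at no more than 0.474 CPM, and was not matched to the list. The other 9 markers were tested, with a median log2 fold change of -0.23, 5 below 0, 4 above and none past the threshold. Their values ran from -0.57 to 0.37. All infants were below all adults for 2 of the 9, where the share of all genes was 7.58%. These were Ccr7 and Zbtb46, a transcription factor of classical dendritic cells. Zbtb46 was at 217 to 242 CPM in adults and 163 to 201 CPM in infants. Itgax, which encodes CD11c, was at 58.1 to 72.9 CPM in adults and 26.7 to 62.8 CPM in infants.

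Rnf217 was lower in every infant library than in every adult library. It stood at 10.4, 7.62 and 10.5 CPM in adults 1 to 3, and at 1.85, 1.52, 1.60 and 1.54 CPM in infants 1 to 4. The infant libraries lay close together, and the lowest adult level was 4.13 times the highest infant level. The group means were 9.51 ± 1.64 CPM (SD, n = 3) and 1.63 ± 0.149 CPM (SD, n = 4), 5.84-fold higher in adults, and the log2 fold change from adult to infant was -2.54 (SE 0.24). These values chose the gene and are not a test of it. In the all-gene fit by edgeR with Benjamini-Hochberg adjustment, 0.0163% of genes passed, 0.00816% in each direction. The other gene was Igf2bp3, an RNA-binding protein that moved the opposite way, with 0, 11 and 2 reads in adults and 322 to 363 in infants. Its fitted log2 fold change of 6.44 (SE 0.56) rests on adults near 0 and ran from 5.86 to 8.39 as each library was left out.

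**Figure D1:**
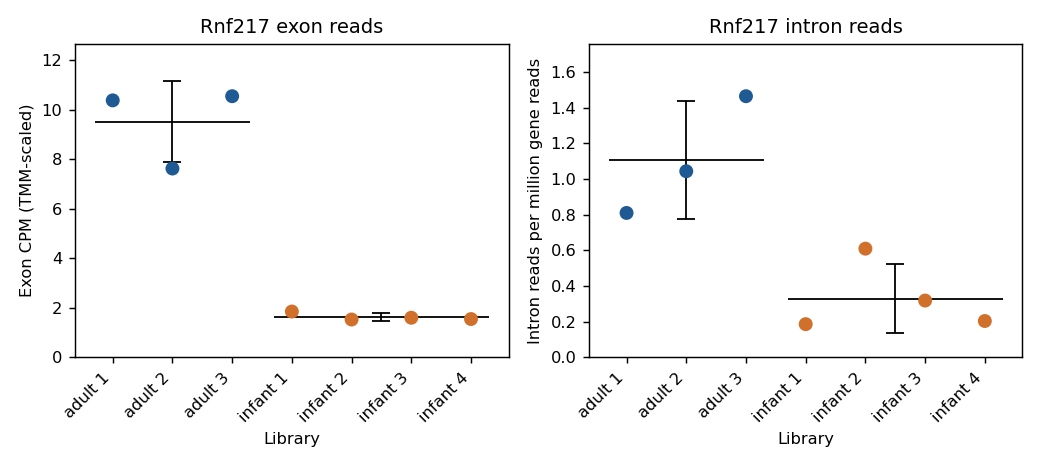
Rnf217 in each library, as exon CPM (left) and as intron reads per 1e6 exon and intron reads (right); points are libraries, blue for adults and orange for infants, lines are group means and bars are SD (n = 3 and n = 4). Adults lie at 7.62 to 10.5 exon CPM and infants at 1.52 to 1.85. The intron values do not overlap either, a gap that rests on 19 reads in adult 1 and 13 in infant 2.

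The reads behind these levels were few but clean. Adults 1 to 3 had 231, 169 and 215 exon reads, and infants 1 to 4 had 39, 29, 28 and 29. All of them mapped to a unique place. Reads that crossed an exon junction, and so came from spliced RNA, numbered 99, 81 and 111 in adults and 20, 20, 6 and 15 in infants. Intron reads, which mostly come from RNA not yet spliced, numbered 19, 24 and 31 in adults and 4, 13, 6 and 4 in infants. Per 1e6 reads the lowest adult, adult 1, had 0.809 intron reads and the highest infant, infant 2, had 0.609. The groups were thus in the same order as by exon reads, but this gap rests on 19 and 13 reads. The share of all genes whose intron reads separate the groups was not counted. A count of 3 reads, the limit for a gene not seen, equals 0.134 to 0.166 CPM in these libraries before scaling. Intervals from such counts cover counting error only.

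Rnf217 (ENSMUSG00000063760) spans 31493193 to 31609184 of chromosome 10 (mm10, minus strand). GENCODE M21 gives it 1 transcript of 6 exons with 11013 exon bases, of which 1545 are coding and 9468, or 86.0%, are untranslated. Most of the counted length was therefore untranslated sequence. On the minus strand the counted gene starts at 31609184, and the start site in RefSeq lies 541 bases upstream of it. Reads from that upstream stretch could not be counted as exon reads.

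The promoter windows of Rnf217 and of Rnf216, the other RING-between-RING gene whose groups did not overlap, are shown from RefSeq on GRCm38.p6, to give the sequence at the start of the gene that carried the difference beside a relative. Each has 250 bases before and 50 after the RefSeq start, both on the minus strand, at chr10:31609676-31609975 for Rnf217 and at chr5:143112971-143113270 for Rnf216. They run 5′ to 3′ and capitals mark CpG dinucleotides, the sites where vertebrate DNA is methylated.
Rnf217: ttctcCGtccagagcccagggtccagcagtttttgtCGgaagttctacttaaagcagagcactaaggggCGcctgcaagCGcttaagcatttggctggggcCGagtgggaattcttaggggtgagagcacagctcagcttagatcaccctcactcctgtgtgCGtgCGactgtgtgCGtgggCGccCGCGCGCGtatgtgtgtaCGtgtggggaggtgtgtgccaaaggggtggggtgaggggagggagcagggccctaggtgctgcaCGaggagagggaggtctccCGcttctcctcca
Rnf216: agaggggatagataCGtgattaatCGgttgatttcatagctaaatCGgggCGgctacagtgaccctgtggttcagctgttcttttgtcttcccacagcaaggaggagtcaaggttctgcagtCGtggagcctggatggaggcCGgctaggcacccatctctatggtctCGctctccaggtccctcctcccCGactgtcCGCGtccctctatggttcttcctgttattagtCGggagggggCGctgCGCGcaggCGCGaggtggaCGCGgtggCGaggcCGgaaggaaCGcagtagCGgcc

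The Rnf217 window held 16 CpGs and was 61% G or C, and that of Rnf216 held 22 and was 59.7%. A window was found for 63 of the 79 genes. Their median was 21 CpGs and 60% G or C, against 13 CpGs and 56.3% over 17492 protein-coding genes, so Rnf217 lay below its family in CpGs and above the median of all genes. Both strands were searched for the TATA box (TATAAA), the CCAAT box (CCAAT), the GC box (GGGCGG), the AP-1 motif (TGANTCA), the CRE motif (TGACGTCA), the E-box (CACGTG) and the NF-kB consensus. Where these overlapped each was counted. The Rnf217 window held none of them and the Rnf216 window held the GC box. The GC box was in 46.3% of all windows and in 63.5% of the family's. The TATA box was in 13.3% of all windows, the CCAAT box in 39.0%, the AP-1 motif in 7.08%, the CRE motif in 2.34%, the E-box in 7.90% and the NF-kB consensus in 4.60%.

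No gene within 500 kb of Rnf217 was measured with a like difference. The only neighbour with enough reads was Hddc2, 164989 bases away, with a log2 fold change of 0.12 (SE 0.25). Tpd52l1 had 3 reads over all 7 libraries and Gm5422 had 8. Gm7909, a pseudogene inside the Rnf217 span, had 0.

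The rest of the family stayed far closer to 0. The other 60 tested members ran from -0.86 (Rnf43) to 0.68 (Rnf25) in log2 fold change, with a median of -0.09. With Rnf217 the median of the 61 was -0.10, against 0.0016 over all tested genes, and 35 of the 61 were below 0, against 49.8% of all genes. A change of less than 0.5 either way was found for 55 of the 61 (90.2%), against 82.5% of all genes. Rnf217 alone lay beyond 1, where 3.6% of all genes did. By DESeq2 1.47% of all genes passed (0.539% higher and 0.933% lower in infants) and by limma-voom 0.0245% (0.00816% higher and 0.0163% lower). None of the other 60 passed over all genes by edgeR, DESeq2 or limma-voom, and 5 had an unadjusted p under 0.05 by edgeR. Counting Rnf217 that was 6 of 61, against 13.3% of all genes. They were 2 higher in infants, where the share of all genes was 6.53%, and 4 lower, where it was 6.73%.

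**Figure D2:**
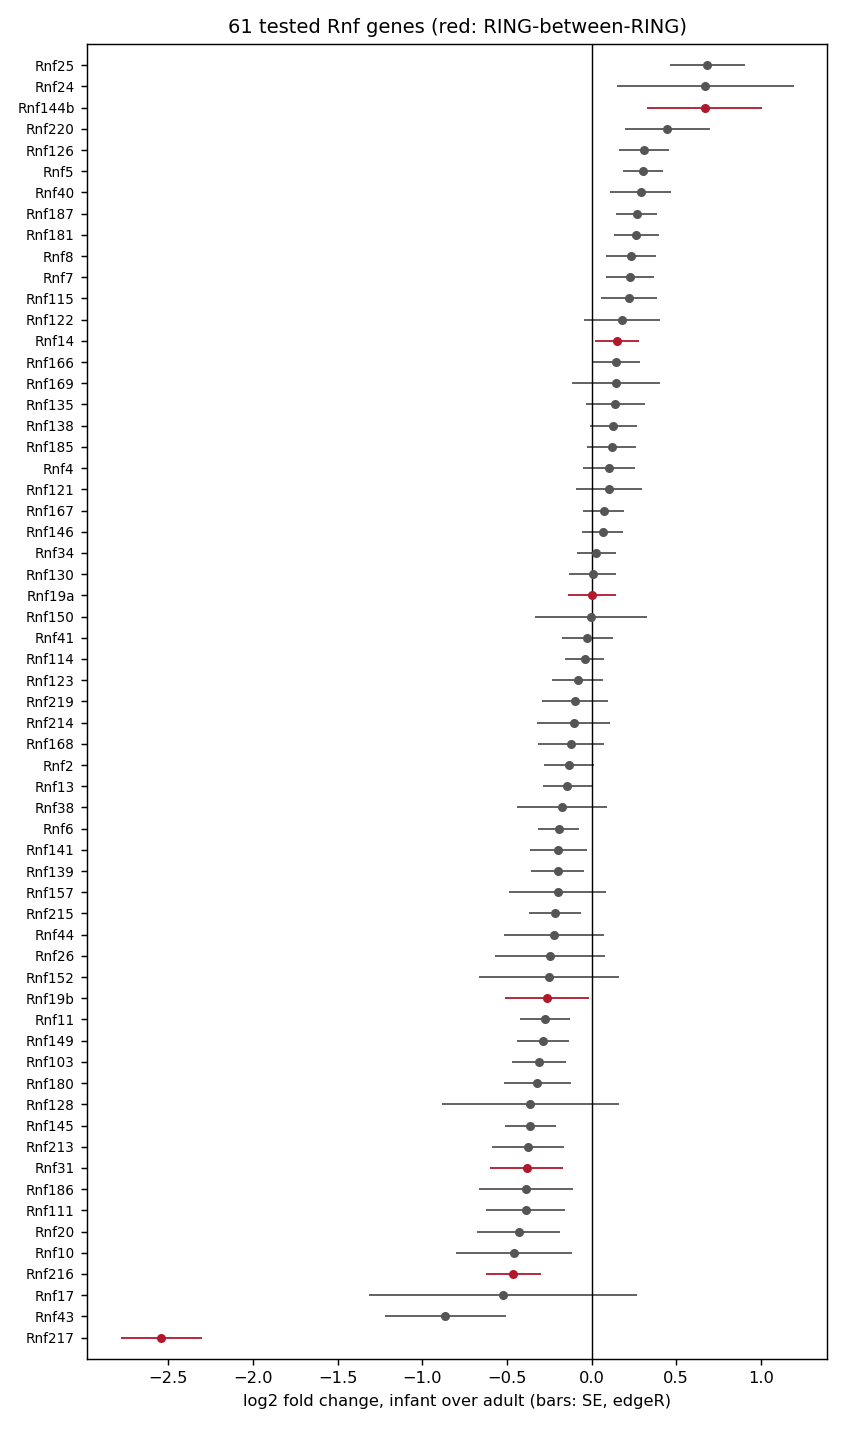
Log2 fold change from adult to infant of the 61 tested Rnf genes, ordered by value; points are edgeR estimates, bars are SE, and red marks the RING-between-RING genes. Rnf217 sits at -2.54 and all other genes lie between -0.86 and 0.68.

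Adult and infant libraries did not overlap for 8 of the 61 genes, against 15.5% of all tested genes. Infants were above adults for Rnf25, Rnf5, Rnf187 and Rnf126, where the share over all genes was 7.97%. Infants were below adults for Rnf217, Rnf216, Rnf145 and Rnf20, where it was 7.58%. These shares are near or below those of all genes, and since the same comparison chose the family nothing further is read from them.

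The RING-between-RING genes did not share the pattern of Rnf217. Of the 8 in the family, 7 were tested, 4 with a negative and 3 with a positive log2 fold change, with a median of -0.26. Rnf217 was the 1 that passed by edgeR. Rnf144a, the untested one, had 50 reads over all libraries.

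Rnf216, also called Triad3, is known in human cells for marking toll-like receptors for breakdown. It stood at 48.4, 44.96 and 39.2 CPM in adults 1 to 3 and at 36.1, 26.1, 28.7 and 37.3 CPM in infants 1 to 4. Adult 3 and infant 4 lay close to each other, though no infant reached an adult. The log2 fold change was -0.46 (SE 0.16) and did not pass over all genes.

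Rnf31, or HOIP, is the catalytic subunit of the complex that builds linear ubiquitin chains on TNF receptor and toll-like receptor complexes. It was at 96.0, 95.9 and 82.1 CPM in adults and at 90.4, 43.3, 79.99 and 66.5 CPM in infants. Infant 2 was the lowest, and infant 1 lay among the adults. Its log2 fold change of -0.38 (SE 0.22) became -0.21 without infant 2. Rnf19b, known as NKLAM and studied in natural killer cells and macrophages, was also lowest in infant 2. It was at 325, 369 and 276 CPM in adults and 348, 148, 275 and 306 CPM in infants. Its log2 fold change of -0.26 (SE 0.25) became -0.07 without infant 2.

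Rnf19a, its close relative, was at group means of 69.4 ± 5.45 (SD, n = 3) for adults and 69.5 ± 10.2 CPM (SD, n = 4) for infants. Rnf14, known in human cells for clearing proteins trapped on stalled ribosomes, was at 105 ± 4.37 CPM and 117 ± 15.03 CPM, a log2 fold change of 0.15 (SE 0.13). Rnf144b, a p53 target gene in human cells, was low, at 2.2003, 1.53 and 2.06 CPM in adults and 3.36, 2.16, 4.33 and 2.45 CPM in infants. Infant 2 lay just under adult 1, and the log2 fold change was 0.67 (SE 0.34). None of these 3 passed over all genes.

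**Figure D3:**
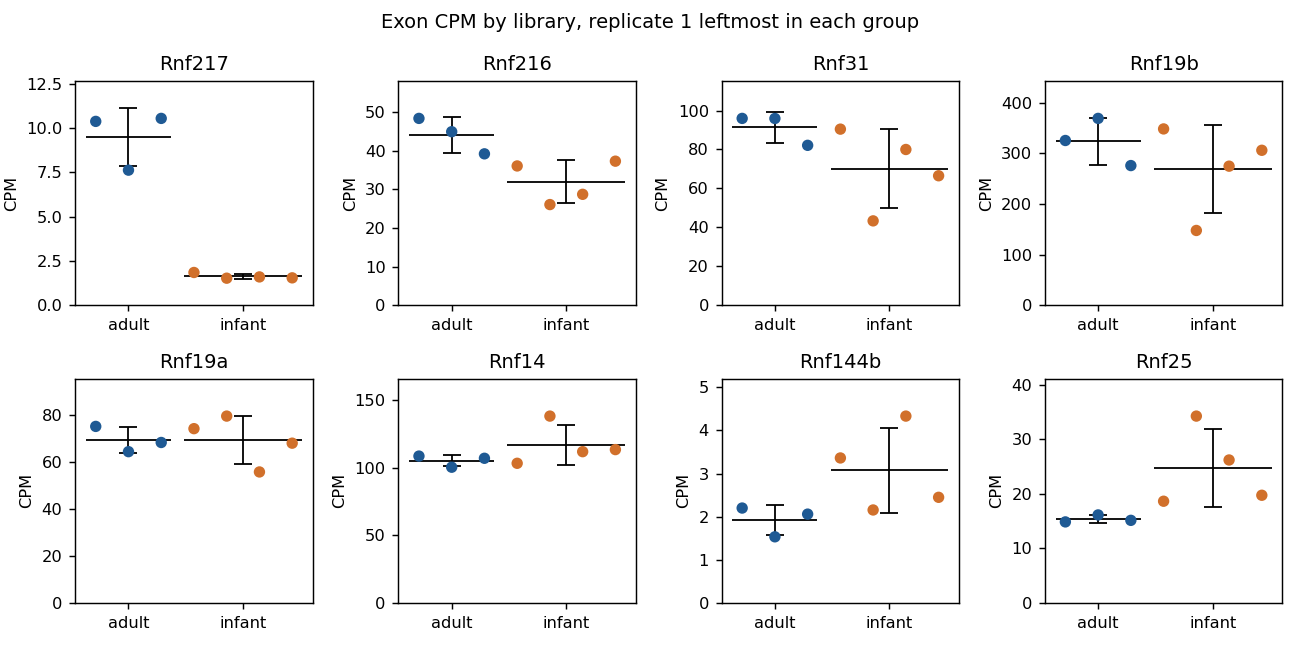
Exon CPM by library for the 7 tested RING-between-RING genes and for Rnf25, with adults in blue and infants in orange, replicate 1 leftmost in each group, lines for means and bars for SD (n = 3 and n = 4); each vertical axis starts at 0. Rnf217 has a wide gap between groups at 1.63 CPM against 9.51 CPM, whereas infant 2 is the low point of Rnf31 and Rnf19b.

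Genes that act in innate immune signalling were spread evenly around 0. Of 17 listed, 16 were tested, 8 on each side of 0, with a median log2 fold change of -0.0071 and a range of -0.46 (Rnf216) to 0.30 (Rnf5), and none passed over all genes. Rnf5, anchored in the endoplasmic reticulum and known in human cells for breaking down the antiviral adaptors STING and MAVS, was at 87.2, 85.3 and 86.0 CPM in adults. In infants it was at 99.2, 118, 112 and 97.1 CPM, so each infant was above each adult. Its log2 fold change was 0.30 (SE 0.12), and 0.26 (SE 0.12) from the reads that mapped uniquely, which were 72.0% of its exon reads.

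Rnf11, a subunit of the A20 complex that restrains NF-kB, was at group means of 59.0 ± 0.966 (SD, n = 3) for adults and 48.8 ± 8.39 CPM (SD, n = 4) for infants, where infant 1 at 59.2 CPM lay among the adults. Rnf135, or Riplet, which activates the RNA sensor RIG-I, had a log2 fold change of 0.14 (SE 0.17). Rnf125, which ends RIG-I signalling, had 25 reads over all libraries and was not tested. Rnf114, a psoriasis risk gene in humans, was among the most stable, at 398 ± 20.2 and 387 ± 23.3 CPM (log2 fold change -0.04, SE 0.12). Rnf213, a very large protein tied to moyamoya disease in humans, was at -0.37 (SE 0.21), with 50.4% of its reads mapped uniquely and -0.54 (SE 0.22) from those. Adult 3 was its highest library, at 39.2 CPM against 18.8 to 26.5 CPM in the other 6, and the value ran from -0.53 to -0.10 as each library was left out.

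The 12 genes of chromatin, DNA repair and transcription, all tested, centred on a log2 fold change of -0.015, 6 on each side, and none passed over all genes. Rnf20 and Rnf40 form 1 ligase for histone H2B, yet their values differed in sign. Rnf20 was at 19.5, 18.1 and 20.004 CPM in adults and 17.4, 7.99, 16.7 and 14.9 CPM in infants, all 4 infants below the adults, a log2 fold change of -0.43 (SE 0.24). Rnf40 was at group means of 195 ± 2.67 (SD, n = 3) for adults and 238 ± 56.4 CPM (SD, n = 4) for infants, a log2 fold change of 0.29 (SE 0.18). Without infant 2 the values were -0.24 for Rnf20 and 0.18 for Rnf40. The difference between the pair was not tested.

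Rnf2, the Ring1b subunit of Polycomb complex PRC1, was at -0.13 (SE 0.15). Rnf168, which ubiquitinates histone H2A at DNA breaks, was at -0.12 (SE 0.19), and Rnf8, which acts before it, at 0.23 (SE 0.15) with only 19.3% of its reads mapped uniquely. The ligases for SUMO-bearing proteins were at 0.10 (SE 0.15) for Rnf4 and -0.39 (SE 0.24) for Rnf111, the latter also known as Arkadia in TGF-beta signalling and at -0.22 without infant 2.

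For genes of membranes, endoplasmic reticulum and endosomes the median log2 fold change was -0.025, with 11 of 19 below 0 and none past the threshold. Rnf145, an endoplasmic reticulum ligase that responds to sterols and acts on the rate-limiting enzyme of cholesterol synthesis, was at 70.8, 79.95 and 67.5 CPM in adults and 67.2, 44.7, 59.7 and 54.9 CPM in infants. Adult 3 and infant 1 nearly met, though the groups did not overlap, and the log2 fold change was -0.36 (SE 0.15). Rnf43, which removes Wnt receptors from the cell surface, had the lowest fold change after Rnf217, at -0.86 (SE 0.36). Its adults were at 11.2, 10.9 and 5.98 CPM and its infants at 3.88, 3.21, 4.96 and 8.57 CPM, so adult 3 fell within the range of the infants.

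Rnf126, which removes proteins that missed their membrane, was at 15.3, 17.001 and 14.6 CPM in adults and 17.5, 20.03, 20.8 and 19.01 CPM in infants, a log2 fold change of 0.31 (SE 0.15) with the groups just apart. Rnf103, of the endoplasmic reticulum, was at -0.31 (SE 0.16), and became -0.16 when adult 3, its highest library at 44.9 CPM, was left out. Rnf24, a membrane ligase near the top of the fold changes, was low, at 2.87, 2.89 and 1.77 CPM in adults and 8.76, 1.79, 2.79 and 2.61 CPM in infants. Infant 1 stood alone above all other libraries, and the log2 fold change of 0.67 (SE 0.52) ran from -0.07 to 0.91 as each library was left out. Rnf139, a sterol-related ligase, had 6.33% of its reads mapped uniquely and a log2 fold change of -0.20 (SE 0.16), and a gene on the other strand, Tatdn1, overlaps it. The sources used here do not give whether counting used strand.

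Among members outside these groups, Rnf25 had the highest fold change of the family. It is known in human cells for acting with Rnf14 at stalled ribosomes. It was at 14.9, 16.1 and 15.2 CPM in adults and 18.7, 34.3, 26.2 and 19.8 CPM in infants, with infant 2 the highest. The log2 fold change was 0.68 (SE 0.22) and 0.48 without infant 2, and all 4 infants stayed above the adults. Rnf187, known in human cells as a co-activator of the transcription factor AP-1, was at 196, 192 and 204 CPM in adults and 215, 267, 229 and 238 CPM in infants (log2 fold change 0.27, SE 0.12). Rnf181 averaged 225 ± 6.44 CPM (SD, n = 3) and 270 ± 36.8 CPM (SD, n = 4), with infant 1 among the adults (log2 fold change 0.26, SE 0.13). Rnf7, the RING partner of cullin ligases, was at 0.23 (SE 0.14).

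Levels of the genes were compared per length, as RPKM, reads per kilobase of exon and per 1e6 mapped reads. Rnf115, a cytosolic ligase linked to endosome traffic, had the highest level of the family in both groups, at a median of 292 RPKM. In CPM it was at 920, 764 and 886 in adults and 824, 1275, 894 and 997 in infants, so the groups overlapped. Rnf114 followed at 112 ± 5.48 RPKM in adults (SD, n = 3), Rnf19b at 107 ± 15.5 RPKM and Rnf187 at 96.0 ± 3.17 RPKM, and the ranges of Rnf114 and Rnf19b overlapped. In infants Rnf187 was second at 113 ± 6.57 RPKM (SD, n = 4), and its range overlapped that of Rnf114. Rnf181 and Rnf130, a membrane ligase of the Goliath kind, completed the highest 6 in both groups.

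Rnf217 ranked 54 of 79 by mean RPKM in adults, at 0.818 ± 0.138 RPKM (SD, n = 3), and 62 in infants, at 0.138 ± 0.0174 RPKM (SD, n = 4). It was thus a low gene of the family in either group. A median of at least 1 RPKM was found for 52 genes and of at least 10 for 29. The 29 genes at 10 or more ranged from -0.46 to 0.45 in log2 fold change, with both ends, Rnf10 and Rnf220, nearer 0 without infant 2 (-0.18 and 0.13). The 9 tested genes under 1 RPKM ranged from -2.54 to 0.67, where the ends were Rnf217 itself and Rnf24, and the lowest after Rnf217 was Rnf43 at -0.86. On a log2(RPKM + 1) scale, which shrinks low genes, Rnf217 had a difference of -0.67 and did not pass (adjusted p = 0.0793 by limma).

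**Figure D4:**
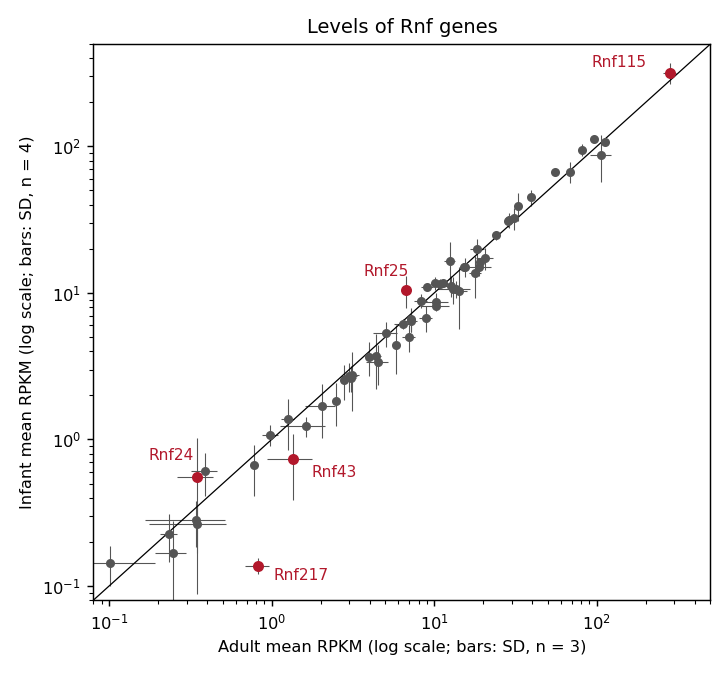
Mean RPKM of 62 Rnf genes with means above 0.1 in both groups, adults on the horizontal and infants on the vertical axis, both on log scales, with bars for SD (n = 3 and n = 4; bars that reach 0 run off the axis) and a line of equal level; red marks 5 labelled genes. Most genes follow the line from 0.1 to about 300 RPKM, and Rnf217 lies below it at 0.818 RPKM in adults and 0.138 RPKM in infants.

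The 18 untested genes were silent or nearly so. No read was found for 11 of them in any library, among them Rnf112, Rnf151, Rnf165, Rnf182 and Rnf212. The other 7 had between 1 and 50 reads over all 7 libraries. Zero reads still allow up to 0.134 to 0.166 CPM in a library.

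Infant 2 was the most divergent library for the family, as for all genes. It was the highest library for 21 of the 61 genes and the lowest for another 21 (34.4% each), against 27.8% and 29.9% of all tested genes. Relative to the mean of the other infants it was more than 1 log2 unit lower for Rnf10, Rnf44, Rnf26 and Rnf19b, and that far higher for none. Rnf10 was the widest, at 17.7 CPM in infant 2 against 55.6 to 64.5 CPM in the other infants and 61.8 to 76.2 CPM in adults. For Rnf217 infant 2 differed from the other infants by -0.09 log2 units. Without infant 2 the log2 fold change of Rnf217 was -2.51, and the median of the 61 genes was -0.03. Then 9 of the 61 genes had an unadjusted p under 0.05, against 14.6% of all genes.

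The median SD of log2 CPM was 0.122 among adults and 0.248 among infants over the 61 genes, and 0.172 among infants without infant 2. Over all tested genes these were 0.161, 0.292 and 0.197. The SD was larger in infants than in adults for 50 of the 61 genes, and for 40 without infant 2. Rnf217 was among the exceptions, with its infants closer together than its adults.

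**Figure D5:**
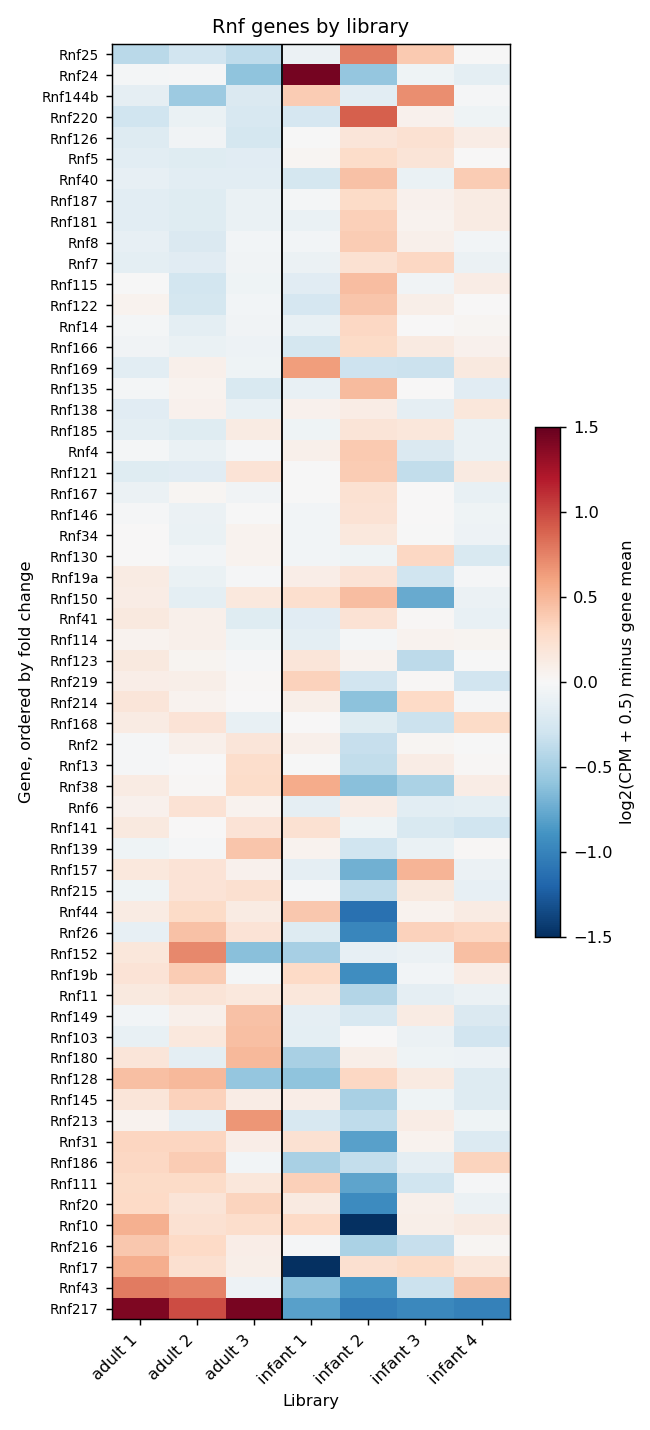
Log2(CPM + 0.5) of the 61 tested Rnf genes in each library after subtraction of the gene's mean over libraries, ordered by fold change from infants higher (top) to adults higher (bottom); red is above the mean and blue below, with colours saturated at 1.5. The bottom row, Rnf217, is red in all 3 adults and blue in all 4 infants, and infant 2 stands out in many other rows.

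Partners of the family were counted from lists. Among 36 E1 and E2 enzymes, all tested, the median log2 fold change was 0.21, 25 were above 0 and none passed by edgeR, while 3 had an unadjusted p under 0.05 by it (13.3% of all genes) and DESeq2 called 1, Ube2c (1.47% of all genes). Ube2c, the E2 of the anaphase-promoting complex in dividing cells, was at 4.54, 3.92 and 3.92 CPM in adults and 8.38, 7.26, 8.21 and 11.8 CPM in infants, with the groups apart (log2 fold change 1.11, SE 0.24). Ube2e3 was at 0.46 (SE 0.17) and Ube2m, the E2 for the ubiquitin-like protein NEDD8, at 0.47 (SE 0.19).

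Of 10 other RING-between-RING ligases and linear-chain partners, 9 were tested, with a median of -0.18 and none past the threshold. Cyld, which removes linear chains, was at group means of 90.8 ± 4.78 (SD, n = 3) for adults and 76.0 ± 4.82 CPM (SD, n = 4) for infants, all infants below all adults (log2 fold change -0.26, SE 0.11). Spata2, which brings Cyld to the linear-chain complex, was at -0.49 (SE 0.23), and Sharpin, a subunit of that complex, at 0.19 (SE 0.12). Of 31 other RING ligases, 30 were tested, with a median of -0.038 and none past the threshold. Traf6, an adaptor of toll-like receptor signalling, was at -0.55 (SE 0.19) and Rbx1, the common cullin partner, at 0.28 (SE 0.12).

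A list of iron genes around ferroportin, which also held Hax1, Tet1, Tet2 and Tet3, had a median of -0.21 over 11 tested of 14 listed. In it 2 genes had an unadjusted p under 0.05, where 13.3% of all genes did, and none passed the threshold by edgeR. Slc40a1, which encodes ferroportin, was at 15.5, 13.3 and 2.60 CPM in adults and 3.79, 2.21, 2.05 and 2.29 CPM in infants. Adult 3 lay within the infants for Slc40a1, whereas for Rnf217 it was at 10.5 CPM, close to adult 1 at 10.4 CPM. This contrast rests on adult 3 alone, and a link between the levels of these genes was not tested. The log2 fold change of Slc40a1 was -2.01 (SE 0.51), and it ran from -2.47 to -1.62 as each library was left out. DESeq2 called Slc40a1, as it did 1.47% of all genes. Hmox1, which frees iron from heme, was at 20.9, 19.8 and 13.4 CPM in adults and 11.8, 6.89, 13.3 and 8.04 CPM in infants (log2 fold change -0.85, SE 0.26), with adult 3 just above infant 3.

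Of the other iron genes, Slc11a2, an iron importer, was at -0.41 (SE 0.19), Ftl1, ferritin light chain, at 0.36 (SE 0.18), Tfrc, the transferrin receptor, at -0.21 (SE 0.74), Aco1 at -0.16 (SE 0.12), Ireb2 at -0.23 (SE 0.27) and Slc11a1 at 0.09 (SE 0.34). Hax1, a survival protein, was at -0.06 (SE 0.12). The DNA demethylases Tet2 and Tet3 were at 0.09 (SE 0.17) and -0.37 (SE 0.21). Tet1 and the hormone gene Hamp had too few reads to test, and Fth1, ferritin heavy chain, had a pair of entries in the files, 1 with no reads and the other at 2427 to 4226 CPM, and was left out of the counts.

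Markers of other cells were set beside these values. Over the 5 macrophage markers the summed level was 91.4 to 99.3 CPM in adults and 84.0 to 121 CPM in infants, with Marco lower (27.1, 20.02 and 8.34 CPM against 2.32 to 7.68 CPM) and Adgre1 higher (48.9 to 59.3 CPM against 65.9 to 79.5 CPM) in infants. Both were called by DESeq2, as were 1.47% of all genes, and neither by edgeR. Mertk was at 6.60, 3.83 and 10.9 CPM in adults and 2.89 to 4.85 CPM in infants (log2 fold change -0.96, SE 0.35), so adult 2 lay within the infants. Fcgr1 was at -0.06 (SE 0.45) and Siglecf had at most 6 reads in a library. The 4 tested markers had a median of -0.51, 3 of them below 0. At an unadjusted p under 0.05 by edgeR, 2 were lower and 1 higher in infants, against 6.73% and 6.53% of all genes. Among adults, Marco and Slc40a1 were lowest in adult 3, whereas Mertk, like Rnf217, was lowest in adult 2. A link between these orders was not tested. The 4 markers of CD103+ dendritic cells summed to 675 to 1029 CPM in adults and 899 to 1227 CPM in infants. Their log2 fold changes ran from -1.28 to 0.33, 3 below 0 and 1 above. Only Itgae had an unadjusted p under 0.05 by edgeR (13.3% of all genes). It was low, at 1.39, 1.53 and 3.24 CPM in adults against 0.586 to 1.26 CPM in infants. The 3 natural killer cell markers summed to 16.3, 5.14 and 3.33 CPM in adults 1 to 3 and to 1.60 to 5.68 CPM in infants. For all 3 the log2 fold change was below 0 (median -1.27), the groups overlapped and the unadjusted p by edgeR was not under 0.05. The 5 B cell markers summed to 30.6 to 33.5 CPM in adults and 32.2 to 48.4 CPM in infants. The 4 T cell markers summed to 3.65 to 5.66 and 3.84 to 6.91 CPM. The 3 monocyte markers summed to 80.4 to 221 and 84.4 to 276 CPM and the 3 plasmacytoid markers to 166 to 182 and 142 to 181 CPM. Neutrophil, epithelial and erythroid markers, 3 each, summed to under 1 CPM in every library, and 1 neutrophil and 1 epithelial marker had 0 reads. In these bulk libraries fewer cells of a type and less RNA per cell cannot be told apart, and the part of such cells in the Rnf values was not tested.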

How the data were processed

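RNA-seq of 7 libraries was analysed from 1 table for each. The authors counted whole reads for every gene by kind (exon, junction, intron; unique and total), so the deposited counts are not normalized, per the file headers. The tables also hold RPKM, computed by the authors from total exon reads, exon length and mapped reads, per the file headers. The submitters' processing notes list Cuffdiff 2.2.1, Cuffnorm 2.2.1, Cufflinks 2.2.1.0, TopHat2 (2.0.14, 2.1.0) and the build mm10, without saying what each was used for. The program that counted, with its strand setting, is unnamed, not given in the sources used here.

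Total exon read counts were filtered with filterByExpr by group, scaled by TMM and fitted in edgeR 4.0.16 under R 4.3.3 (glmQLFit, robust, glmQLFTest, age as the term), with Benjamini-Hochberg adjustment over 12261 genes and a threshold of 0.05. SE is the log2 fold change over the square root of F. Multi-mapping reads were 8.93% to 9.45% of exon reads. Replicates differed beyond sampling noise (chi-square per degree of freedom 17.7 to 150). DESeq2 1.42.0 and limma 3.58.1 were alternatives, as were other scalings and filters, a replicate block, unique reads and leaving out each library. The members and lists were chosen with earlier results of these data known, and so were the tests. Named genes were Rnf217, the RING-between-RING genes, the 6 highest by RPKM, the 12 members with the smallest p, other members within their role groups, 3 genes of each other list, and the iron list; 1 gene under this rule is not reported here. Other markers and Rnf10, Rnf44 and Igf2bp3 were named after their values were seen.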

Additional observations from a re-analysis of the deposited data

How the results depend on the processing

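Rnf217 was chosen from these same libraries, so the refits show dependence on the processing and are no further test. Its log2 fold change was -2.68 to -2.46 as each library was left out, and Rnf217 passed each time. It was the 1 family member called in each of those fits, and by DESeq2, limma-voom, RLE or no scaling factors, unique reads, no robust estimation, no filter and the filter at 5 CPM. With the replicate number as a block it was -2.51 and did not pass (adjusted p = 0.112), with 0 family members and 1 gene in all called. Deviations from the group mean correlated at 0.033, -0.035 and 0.101 between same-numbered libraries, and at -0.185 to 0.150 between differently numbered ones. With so few libraries these values cannot show whether same-numbered samples share a batch. With log2(RPKM + 1) and no filter Rnf217 was -0.67, with 0 members and 1 gene called. With the RPKM filter and a pseudocount of 1 or 0.1 it was too low to be kept, with 0 members and 1 gene called.

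Over all genes 183 passed with DESeq2, 8 with no filter, and 2 to 10 as libraries were left out (10 without adult 1, and 4 without adult 3, infant 1 or infant 2), against 2 as reported. The median of the family was -0.12 with limma-voom, -0.12 with log2(RPKM + 0.1), -0.12 with no filter and -0.13 with no scaling factors. It was -0.109 to -0.0301 as libraries were left out, lowest without infant 1, with -0.053 without adult 1 and -0.0301 without infant 2. The cause of these moves was not tested. Of 339 values of the 18 other named members, 1 moved by more than the spread between replicates, and 23, all of Rnf19a and Rnf130, changed sign from values of at most 0.0059. No infant library was an outlier by Dixon's criterion for the 19 named members. Rnf24, for which infant 1 stood alone, was not among the 19. With 28 to 39 infant reads, counting error limits the Rnf217 level.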

Other observations

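The tables hold 8 further names that begin with Rnf and fall outside the naming rule. Rnft2, which encodes a membrane protein with a RING finger, had 75 reads in all, with group means of 0.169 ± 0.0485 (SD, n = 3) for adults and 0.837 ± 0.656 CPM (SD, n = 4) for infants. It did not pass by edgeR (adjusted p = 0.317), with a log2 difference of 2.26 (SE 0.80). Rnft1 had a log2 fold change of 0.19 (SE 0.15), the spliceosome genes Rnf113a1 and Rnf113a2 of 0.32 (SE 0.23) and 0.08 (SE 0.15), and the entry of Rnf170 with reads of -0.20 (SE 0.18). Rnf138rt1 had 4 reads over all libraries, and the second Rnf170 entry and the Rnf170 pseudogene had 0.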
